A study of Mus musculus with 8 samples.

Results

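The subject is the set of 7420 liver regions that an antibody to NONO enriched at both times after re-feeding and at which neither the fasted nor the IgG library had a peak. Members were chosen by presence in the authors' peak lists. A member is a peak of the 2 h re-fed list that overlapped a peak of the 10 h re-fed list by at least 1 bp and overlapped no peak of the fasted list and no peak of the IgG list. They made up 12% of the 61737 peaks of the 2 h list and 19.8% of its 37446 peaks free of an IgG peak. The other IgG-free 2 h peaks were 21294 peaks found at 2 h alone, 4442 shared with the fasted list and 4290 found at all 3 times. Presence and absence in these lists, and hence enrichment at 2 h and 10 h, were what the selection used and are given as description, with no test.

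RNA bound to NONO in liver nuclei was sequenced from wild-type C57BL/6 mice of 14 weeks, whose day had 12 h of light followed by 12 h of darkness and whose food was offered only in darkness for 1 week. Livers of fasted mice were collected at ZT10, those re-fed for 2 h at ZT14 and those re-fed for 10 h at ZT22, where ZT counts hours from lights on. The effect of food and that of the hour cannot be told apart. An immunoprecipitate and an input library were made at each time, and an IgG immunoprecipitate with its own input, of unstated feeding state, served as the control, which makes 8 libraries. As 2 experiments were pooled into each library, a group held 1 library and no difference between times has a replicate error. Whole-liver nuclei hold every cell type of the organ, and fewer cells of a type cannot be told apart from less RNA per cell.

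NONO is a nuclear RNA-binding protein that pairs with SFPQ or PSPC1, and it is best known as a core protein of paraspeckles, which assemble in the nucleus around Neat1, a long non-coding RNA. It also takes part in transcription, splicing and the retention of RNA in the nucleus. RNA from nuclei is rich in transcripts that still carry their introns, so introns can be read there as well as exons. In the liver, feeding turns glucose into glycogen and fat, while fasting draws on fatty acid oxidation and glucose output.

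The RNA of 3 members is shown as examples of sequence under the 2 h signal. They are among the most tagged at 2 h of the 180 members whose central 300 bases lie wholly inside an exon that GENCODE M21 annotates as a retained intron and outside every coding or untranslated exon. Each is written 5′ to 3′ on the strand of the gene in mm10, and capitals mark runs of 5 or more T. Slc38a2 encodes a transporter of neutral amino acids, with no fasted peak anywhere in the gene (shown: chr15:96696545-96696844, minus strand). Son encodes a protein of nuclear speckles (shown: chr16:91672316-91672615, plus strand), and its 10 h peak began downstream of the stretch shown, at 91672922. Eif5 encodes a translation initiation factor, and its stretch begins inside the small nucleolar RNA gene Snora28 (shown: chr12:111540977-111541276, plus strand).
Slc38a2: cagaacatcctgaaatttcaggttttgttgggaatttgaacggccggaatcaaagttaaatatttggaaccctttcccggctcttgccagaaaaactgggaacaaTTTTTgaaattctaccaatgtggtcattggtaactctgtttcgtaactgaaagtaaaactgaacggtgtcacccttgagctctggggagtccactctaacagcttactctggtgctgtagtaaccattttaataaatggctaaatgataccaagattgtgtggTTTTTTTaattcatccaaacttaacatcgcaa
Son: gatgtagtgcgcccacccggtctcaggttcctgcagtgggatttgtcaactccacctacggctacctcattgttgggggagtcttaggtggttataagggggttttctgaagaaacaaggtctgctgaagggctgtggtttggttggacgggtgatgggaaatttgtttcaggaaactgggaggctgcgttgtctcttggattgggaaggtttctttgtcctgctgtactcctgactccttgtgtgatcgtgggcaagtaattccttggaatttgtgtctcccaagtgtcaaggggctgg
Eif5: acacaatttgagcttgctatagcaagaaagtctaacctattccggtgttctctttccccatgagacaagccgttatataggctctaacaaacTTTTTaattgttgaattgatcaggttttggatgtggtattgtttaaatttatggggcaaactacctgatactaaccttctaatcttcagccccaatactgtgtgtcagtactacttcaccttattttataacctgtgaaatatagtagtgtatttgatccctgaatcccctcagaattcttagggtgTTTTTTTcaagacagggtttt

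The 3 stretches differed in T content, with 2 runs of T in Slc38a2, 0 in Son and 2 in Eif5. GC content was 39% in Slc38a2, 51.3% in Son and 36.7% in Eif5. Over the 180 windows, TTTTT stood on the strand of the transcript in 64.4% (116), against 60.8% of the 1309 such windows of all 2 h peaks. AGGGA was found on that strand in 22.2% (40) against 24.4%, TGTGTG in 21.1% (38) against 21.6%, AATAAA in 16.1% (29) against 17%, and GTAAGT, which resembles a 5′ splice site, in 3.89% (7) against 7.1%. On both strands together the shares were 75% against 75.5% for TTTTT, 42.8% against 45.8% for AGGGA, 28.9% against 29.6% for TGTGTG, 38.9% against 42.4% for AATAAA and 11.7% against 14.3% for GTAAGT. Median GC content was 40.5% against 40%. These windows cover few members and only introns annotated as retained, so they describe those introns and not the whole set.

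Promoters were shown where a member covered the whole promoter window of the RefSeq table (GRCm38, which is mm10), which was so for 27 genes and 27 members. Bcl6, a transcriptional repressor, and Nr1h4, the bile acid receptor FXR, had the most tagged of those that carry no coding or untranslated exon in the 250 bases before the start. Both lie on the minus strand, at chr16:23988853-23989102 for Bcl6 and chr10:89506659-89506908 for a start inside the Nr1h4 gene. CG dinucleotides are in capitals.
Bcl6: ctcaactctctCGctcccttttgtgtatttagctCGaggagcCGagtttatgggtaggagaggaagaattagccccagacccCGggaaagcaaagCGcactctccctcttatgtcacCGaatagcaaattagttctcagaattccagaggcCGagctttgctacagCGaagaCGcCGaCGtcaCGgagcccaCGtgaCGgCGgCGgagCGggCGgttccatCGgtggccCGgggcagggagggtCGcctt
Nr1h4: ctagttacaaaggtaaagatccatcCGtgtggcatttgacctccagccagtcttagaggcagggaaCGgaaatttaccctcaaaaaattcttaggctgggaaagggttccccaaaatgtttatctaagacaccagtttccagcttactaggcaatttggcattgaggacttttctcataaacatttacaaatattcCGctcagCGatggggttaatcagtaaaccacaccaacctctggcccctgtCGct

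The Bcl6 stretch had 58.4% GC and 21 CG dinucleotides, whereas the Nr1h4 stretch had 44.4% GC and 5. Over all 32851 promoter windows of the table the median was 52.4% GC and 6 CG dinucleotides (both strands read alike for CG), and over the 29 windows under members it was 44.4% and 4, so the Bcl6 stretch is not typical of them. The member over the Bcl6 start (chr16:23987107-23989977) held 787.5 normalised tags at 2 h and 37.8 at 10 h. The narrower 10 h peak (chr16:23987938-23988438) lay inside Bcl6 and did not reach the start or the stretch shown. The member over the inner Nr1h4 start (chr10:89506296-89508046) held 231.9 normalised tags at 2 h and 46 at 10 h, and its 10 h peak (chr10:89506683-89507489) covered most of the stretch shown. A normalised tag is 1 tag per 10000000 tags of the library.

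The libraries were of like depth, with 21091048 tags at 2 h, 18275033 at 10 h, 21032764 fasted and 18995778 in IgG. The approximate efficiency of immunoprecipitation, which is the share of tags in peaks, was unequal. It was 26.05% at 2 h, 17.32% at 10 h, 11.59% fasted and 53.22% in IgG. Fasted tags were not counted at the members, so absence of a fasted peak there is not absence of fasted signal. The lists were of unequal length, at 38209 peaks fasted, 61737 at 2 h, 50609 at 10 h and 55946 in IgG. In the IgG library a single peak on chromosome 9 took 37.5% of all tags, which leaves fewer for every other region, and the part of this in the set was not tested. When the IgG list was not used the set grew to 14034 peaks. It shrank to 4041 when both re-fed lists were reduced to as many peaks as the fasted list holds, to 4176 when a fasted or IgG peak within 1000 bp also removed a peak, and to 2666 when both re-fed peaks had to reach 3-fold over input.

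Most members were modest peaks, as were most peaks of the whole 2 h list. The median member held 16.1 normalised tags at 2 h (lowest 3.79, highest 2770.8) and 18.1 at 10 h (lowest 4.92, highest 1692.5). These correspond to 34 tags (95% exact Poisson interval 23.5 to 47.5) and 33 tags (22.7 to 46.3), and intervals cover counting error only. Fewer than 22 tags, which is 2 times the authors' threshold of 11, were present at 2 h or 10 h in 3228 members (43.5%). The median fold over input was 3.17 at 2 h and 2.89 at 10 h, and 2656 members (35.8%) reached 3-fold at both times. The median length was 690 bp, and 35.3% had the least length the caller gives, 500 bp. Over all 2 h peaks the medians were close, at 17.1 normalised tags, 3.13-fold and 720 bp, with 35.9% at 500 bp. In the 2 h list, 28.8% of members and 30.5% of all peaks held fewer than 22 tags.

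At the edge of the rule, 256 members overlapped their 10 h peak by fewer than 50 bp, with medians of 12.8 normalised tags at 2 h and 14.8 at 10 h. Just outside it, 271 peaks found at 2 h alone had a 10 h peak within 50 bp, and their median was 11.9 normalised tags. A fasted or IgG peak lay within 1000 bp of 3244 members (43.7%) without touching them. The median distance to the nearest fasted peak was 3.12 kb, and 80.9% of members had a fasted peak within 10 kb. Over all 2 h peaks, among them those that overlap a fasted peak, that share was 84.9%.

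Tags at 2 h and 10 h were of similar size in the typical member, with a wide spread. The ratio of 10 h to 2 h tags had a median of 1.13 and quartiles of 0.707 and 1.79, against a median of 0.906 over all 24777 2 h peaks that met a 10 h peak and 0.986 over peaks found at all 3 times. Tags were at least 2 times higher at 10 h in 1533 members (20.7%), beside 15.6% of all 2 h peaks that met a 10 h peak, and at least 2 times lower in 888 (12%), beside 21.5%. No direction can be read from these shares, because the median turned to 0.815 when the same rule was applied from the side of the 10 h list (8470 peaks). It was 1.04 when the 10 h peak, too, had to be free of fasted and IgG peaks. The spread was narrower per kb of peak, where 5% of members were at least 2 times higher at 10 h and 1.36% at least 2 times lower.

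The fold over input moved less than the tags, but fold and tags are unlike measures here. Every member had to reach 2-fold over input in both lists, which limits how low the fold can be. The 10 h fold is that of the most tagged 10 h peak met, whereas 10 h tags are summed over all peaks met. The ratio of the 10 h fold to the 2 h fold had a median of 0.944 with quartiles of 0.759 and 1.12, and it was beyond 2 times in either direction in 2.4% (higher at 10 h) and 6.21% (higher at 2 h) of members. Across members Spearman's rho between 2 h and 10 h was 0.497 for tags, 0.707 for tags per kb and 0.563 for fold. This correlation is across 7420 regions of the same 2 pools, chosen for being peaks in both, and regions are not replicates.

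**Figure D1:**
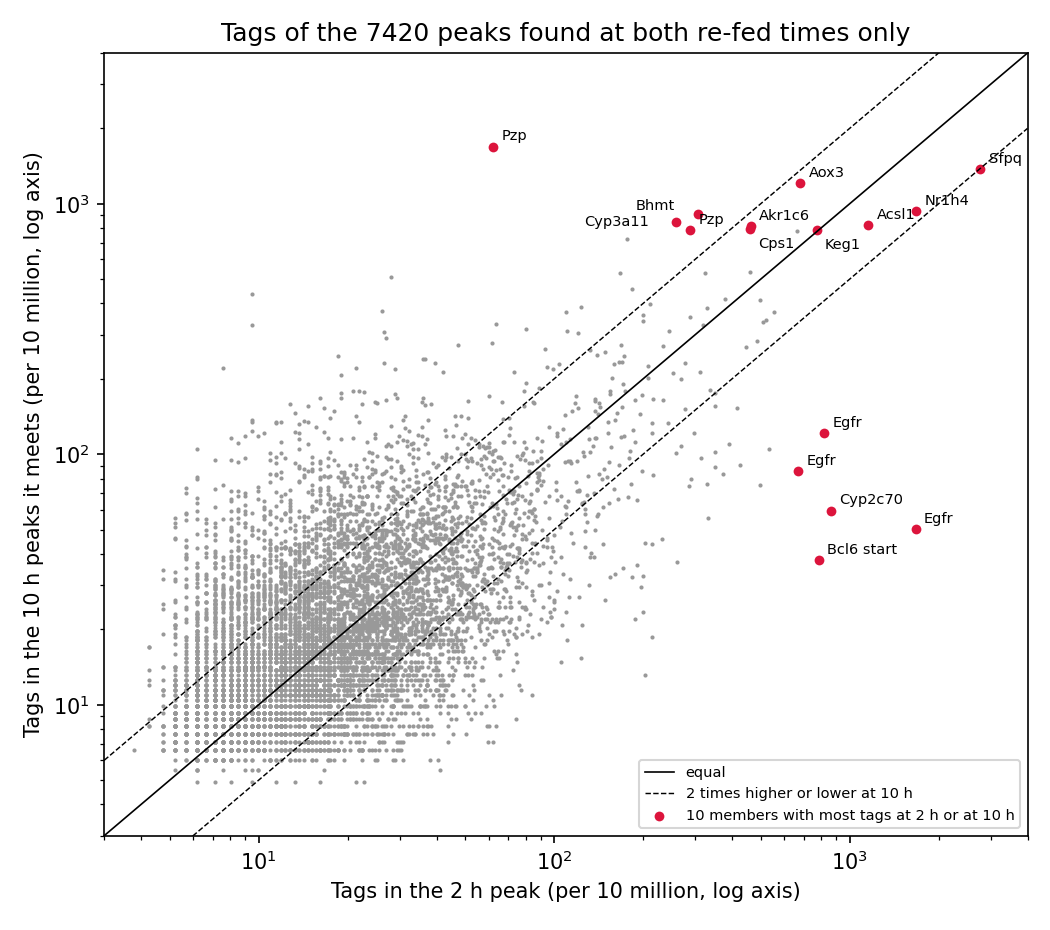
Each grey point is 1 of the 7420 members, with its tags at 2 h on the x axis and the tags of the 10 h peaks it meets on the y axis, both per 10000000 tags of the library on log axes; red points are the 10 members with most tags at either time. Sfpq, Nr1h4 and Acsl1 lie high at both times, Egfr, Cyp2c70 and the Bcl6 start high at 2 h, and a Pzp member high at 10 h.

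The most tagged member lay over Sfpq, the gene of NONO's own partner protein. It spanned chr4:127027846-127034783 inside the gene, with its midpoint in an intron 9990 bp from the start, and held 2770.8 normalised tags at 2 h (2.27-fold over input). At 10 h it met 2 peaks with 1374.6 normalised tags together, the larger of them 2.04-fold over input. Per kb the 10 h value was 0.931 of the 2 h value. The nearest fasted peak lay 2141 bp away, and the gene had 1 fasted peak. The lists do not separate strands, and Gm12940 overlaps Sfpq, so the 2 genes cannot be told apart here.

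Nr1h4, the bile acid receptor FXR, held the next highest 2 h value at chr10:89463893-89470088 in intron 8 of 9, with 1675.6 normalised tags at 2 h and 933 at 10 h. Acsl1, which activates long-chain fatty acids, carried 1156.9 normalised tags at 2 h and 824.1 at 10 h at chr8:46515261-46516511 in intron 7 of 20, and its nearest fasted peak was 10860 bp away. Keg1 was near equal at 773.3 normalised tags at 2 h and 783 at 10 h (chr19:12695768-12697173). Its whole gene body had no fasted peak, the nearest being 65521 bp away. These 3 loci were therefore high at both re-fed times, with Keg1 the most even.

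Other members were high at 2 h and small at 10 h. Egfr, the epidermal growth factor receptor, had 3 such members in its introns, with 1671.8, 822.1 and 668.5 normalised tags at 2 h and 50.3, 121.5 and 85.9 at 10 h. Per kb the 10 h values of these members were 0.15, 0.10 and 0.15 of those at 2 h. The fold over input of all 3 lay between 2.01 and 2.19 at both times, and their inputs at 2 h held 1593, 753 and 644 tags. Cyp2c70, a bile acid hydroxylase of rodents, had 864.8 normalised tags at 2 h and 59.6 at 10 h, with folds of 2.05 and 2.4 and a 10 h value per kb of 0.167 of that at 2 h. The member over the Bcl6 start, given above, had folds of 2.15 and 2.09 and a 10 h value per kb of 0.275 of that at 2 h.

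Other liver genes had members with more tags at 10 h than at 2 h, some of them high at both times. Pzp, which encodes a plasma protease inhibitor, had members with 62.1 and 287.8 normalised tags at 2 h and 1692.5 and 786.3 at 10 h. The first of these met a 10 h peak much wider than itself, and per kb its 10 h value was 3.87 times that at 2 h. Bhmt, an enzyme of homocysteine metabolism, had 306.3 normalised tags at 2 h and 907.8 at 10 h in peaks of equal extent (chr13:93620458-93621380). Cyp3a11, a drug-metabolising cytochrome P450, had 258.9 at 2 h and 844.9 at 10 h. Akr1c6, a steroid dehydrogenase, had 462.8 and 813.1, and Cps1, the first enzyme of the urea cycle, 459 and 790.7, in the same order. The member of Aox3, an aldehyde oxidase, lay over an annotated 3′ untranslated region and had 680.9 normalised tags at 2 h and 1210.4 at 10 h. Akr1c6, Cps1 and this Aox3 member were high at both times, with 10 h tags of 1.76, 1.72 and 1.78 times those at 2 h. Per kb the 10 h values were 1.94, 1.36 and 1.21 times those at 2 h, in the same order. They were 1.75 times in the second Pzp member, 2.94 in Bhmt and 3.33 in Cyp3a11. All members of this paragraph had folds between 2.02 and 2.4 at both times.

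Large members as a class sat close to the authors' threshold of 2-fold over input. The 10 members with most tags at 2 h ranged from 2.02-fold to 2.44-fold there. At least 100 normalised tags at both times were reached by 110 members, which lay over 88 genes apart from 9 members outside any gene body, and their median fold was 2.17 at 2 h and 2.16 at 10 h. Of these, 52 held more tags at 2 h than at 10 h, and 93 lay in introns. The highest folds of the 110 were 3.16 at 2 h and 3.44 at 10 h, both in an intergenic member on chromosome 17 (chr17:84878090-84879449) with 103.8 and 228.7 normalised tags. Slc38a2 had 663.8 normalised tags at 2 h and 781.9 at 10 h at its 3′ end (chr15:96687249-96688018), with folds of 2.85 and 2.84, and with 445.2 and 268.1 in the retained intron printed above. Both were singled out after their values were seen.

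The highest fold over input at both times belonged to smaller intronic peaks. Among members with at least 25 normalised tags at both times, Cdkal1, a tRNA-modifying enzyme, led with 7.22-fold at 2 h and 8.29-fold at 10 h on 61.2 and 27.9 normalised tags (chr13:29700614-29704341, intron 7 of 15). A fasted peak lay 352 bp from it. Ankrd33b followed at 5.03-fold and 4.55-fold on 35.1 and 34.5 normalised tags, in intron 1 of 3. Stk3, a kinase of the Hippo pathway, had 4.57-fold and 4.55-fold on 34.1 and 30.6 normalised tags. Arap2, Lclat1, Uso1, Gm6787 and Med1 completed the 8, with the smaller of the 2 folds between 3.75 and 4.36. Each of the 8 had a 10 h value per kb between 0.79 and 1.51 of that at 2 h. Both folds reached 5 in 248 members.

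By position within genes, members were mostly intronic, as were all 2 h peaks. The midpoint lay in an intron in 88.7% of members (6584; 95% exact Clopper-Pearson interval 88 to 89.4), against 90.1% of all 2 h peaks, 90.1% of peaks at all 3 times and 88.4% of peaks at 2 h alone. A further 6.15% were intergenic (456), 2.14% in 3′ untranslated regions (159), 1.79% in promoters up to 1000 bp before a start (133), 0.58% in exons of non-coding genes (43), 0.377% in coding exons (28) and 0.229% in 5′ untranslated regions (17). The promoter share (interval 1.5 to 2.12) and the share in 3′ untranslated regions (1.83 to 2.5) were above those of all 2 h peaks, at 1.32% (1.24 to 1.42) and 1.65% (1.55 to 1.75). Peaks at 2 h alone had 1.33% in promoters (1.18 to 1.49) and 2.4% in 3′ untranslated regions (2.19 to 2.61), and peaks at all 3 times had 1.26% (0.947 to 1.64) and 1.91% (1.52 to 2.37). The members' promoter interval, from 1.5, narrowly missed that of peaks at 2 h alone, up to 1.49, and overlapped that of peaks at all 3 times. Their 3′ untranslated interval overlapped both. The shares outside introns changed with the processing, as given at the end. Intervals cover counting error only.

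**Figure D2:**
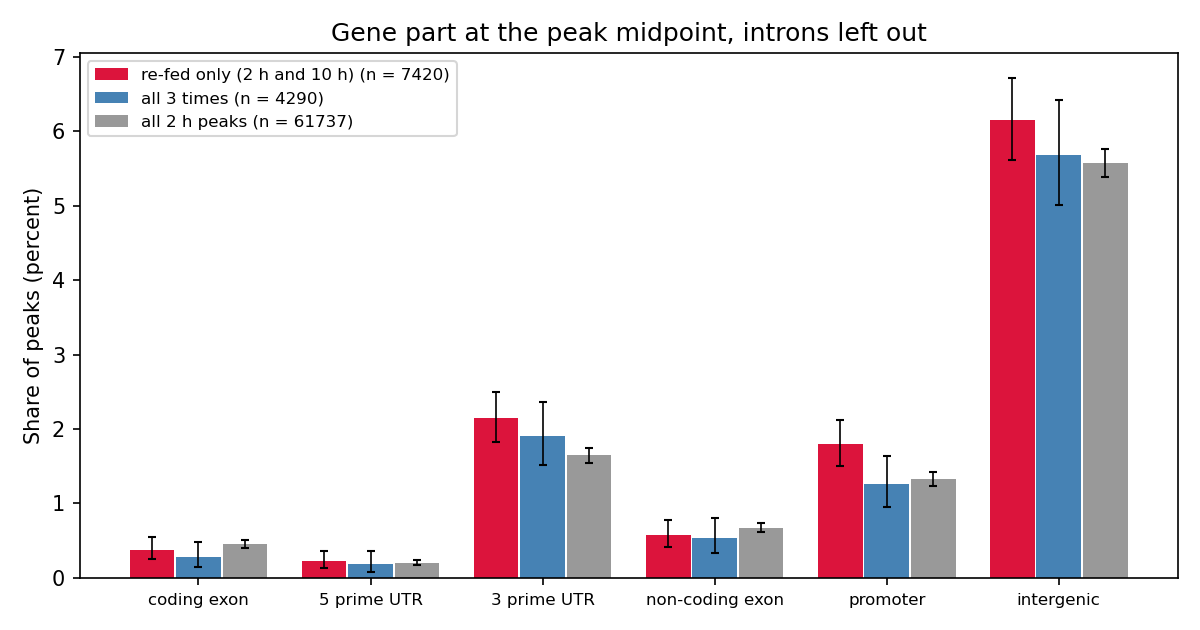
Bars give the share of peaks, in percent, whose midpoint lay in each gene part, for the members, for peaks at all 3 times and for all 2 h peaks; lines are 95% exact intervals for counting error, and introns, which held 88.7% of members, are left out. Intergenic sequence was the largest of the parts shown, at 6.15% of members.

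Within introns, members tended to sit in shorter introns than 2 h peaks at large. The median length of the intron was 10.8 kb for members, 15.6 kb over all 2 h peaks, 14 kb for peaks at 2 h alone and 9.19 kb for peaks at all 3 times. The median distance to the nearest exon was 1969 bp against 2651 bp over all 2 h peaks. It was 2718 bp for peaks at 2 h alone and 1773 bp for peaks at all 3 times. Intron 1 held 26% of the intronic members and the last intron 7.05%, against 27.4% and 6.57% over all 2 h peaks. Along the gene the median member lay 48.7% of the way from start to end (46.6% over all 2 h peaks). An exon annotated as a retained intron held the midpoint of 3.02% of members and 2.77% of all 2 h peaks.

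Median tags were alike in introns and between genes and higher in exons. Intronic members had medians of 16.1 normalised tags at 2 h and 18.1 at 10 h, and intergenic members 14.7 and 18.1. Members in 3′ untranslated regions had 20.9 and 25.2, and the 17 in 5′ untranslated regions 35.1 and 29. The 5′ group includes Igf1, the growth factor secreted by liver, with 520.6 normalised tags at 2 h and 342.5 at 10 h. A fasted peak lay 478 bp from that Igf1 member.

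Of the 456 intergenic members, 303 (66.4%) lay within 10 kb past the end of the nearest gene and 71 within 10 kb before a start. The median distance to that gene was 2425 bp. These shares were not taken for the 3440 intergenic peaks of the whole 2 h list. They can therefore not be called particular to the members. The most tagged lay 1365 bp past the end of Atg2a, an autophagy gene, with 556.2 normalised tags at 2 h and 368.8 at 10 h. A member 3247 bp past the end of Acsl1 had 147.5 and 87.6. Both were chosen after their values were seen.

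Members lay over 3652 host genes, which is 11.4% of 32106 annotated protein-coding and long non-coding genes and 41.8% of the 8733 genes with any 2 h peak. Protein-coding hosts numbered 3352 (15.3% of 21951) and long non-coding hosts 300. A single member was found in 2017 hosts (55.2%), while 262 had 5 or more and 28 had 10 or more. Most hosts were not free of signal in the other lists: 3098 (84.8%) had a fasted peak elsewhere in the gene body and 3268 (89.5%) an IgG peak. In these genes a member is a re-fed peak at another place in the gene, not the only signal in it. The shares of hosts with a fasted or IgG peak were not taken over all 8733 genes with a 2 h peak.

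The share of protein-coding genes with a member went with gene length. It was 2.52% of genes under 15 kb, 17.8% from 15 to 50 kb, 38.2% from 50 to 150 kb, 38.6% from 150 to 300 kb and 31% of genes of 300 kb or more. The median protein-coding host was 58.2 kb long, against 36 kb for protein-coding genes with a 2 h peak. Counted by peak, the median host length was 89 kb for members and 99.7 kb over all 2 h peaks. It was 88.3 kb for peaks at all 3 times. The share of genes with any 2 h peak was not taken by length. The rise with length can therefore not be called particular to members.

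**Figure D3:**
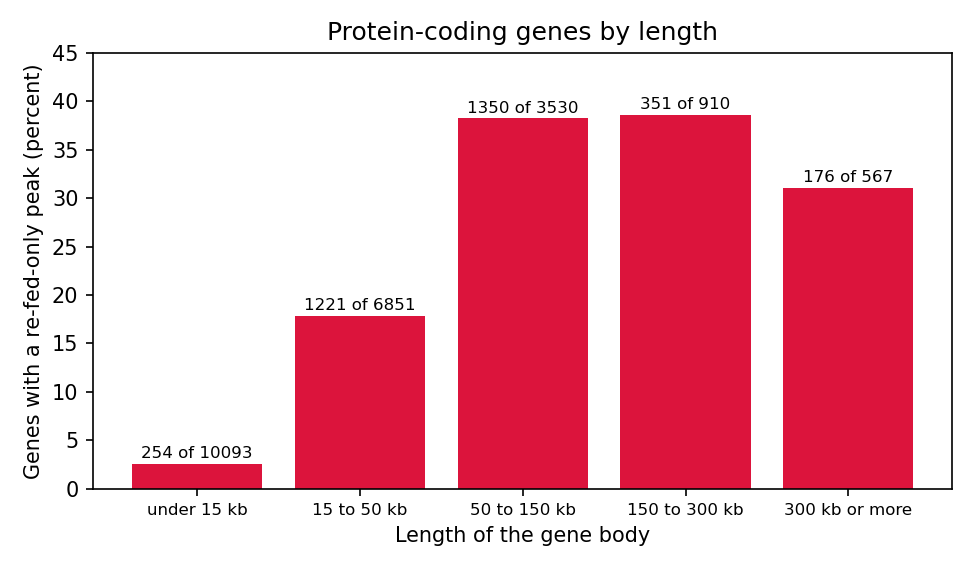
Bars give the percent of protein-coding genes with at least 1 member by length of the gene body, with the number of genes above each. The share was 2.52% under 15 kb and 38.6% from 150 to 300 kb.

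The genes with most members were long genes with many peaks in every list. Foxp1, a forkhead transcription factor, had 23 members among 150 peaks at 2 h, 131 at 10 h, 110 fasted and 97 in IgG. Magi1, a scaffold of cell junctions, had 23 members beside 120, 149, 93 and 104 peaks in the same order. Dock4, a guanine nucleotide exchange factor, had 16 among 83 peaks at 2 h, and Immp2l, a mitochondrial peptidase subunit, 15 among 163. The receptor phosphatases Ptprk and Ptprg had 14 among 126 and 14 among 96. The large vesicle-trafficking proteins Lrba and Vps13b had 14 among 68 and 13 among 94. Pcca, a subunit of mitochondrial propionyl-CoA carboxylase, had 13 among 72. Beside these counts, 12% of all 2 h peaks were members. Gm20388 (15) and Fgfr2 (13) are annotated over so much of their chromosome that 120 and 48 other genes overlap them, so their members may belong to those genes.

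Deptor, an inhibitor of the nutrient-sensing kinase mTOR, had the most members per length among these 12, at 8.17 per 100 kb. Its gene had 41 peaks at 2 h, 37 at 10 h, 21 fasted and 20 in IgG. The members summed to 331.45 normalised tags at 2 h and 160.9 at 10 h. With both re-fed lists as short as the fasted list, 5 of the 12 Deptor members were left, 12 of 23 in Foxp1 and 5 of 23 in Magi1.

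**Figure D4:**
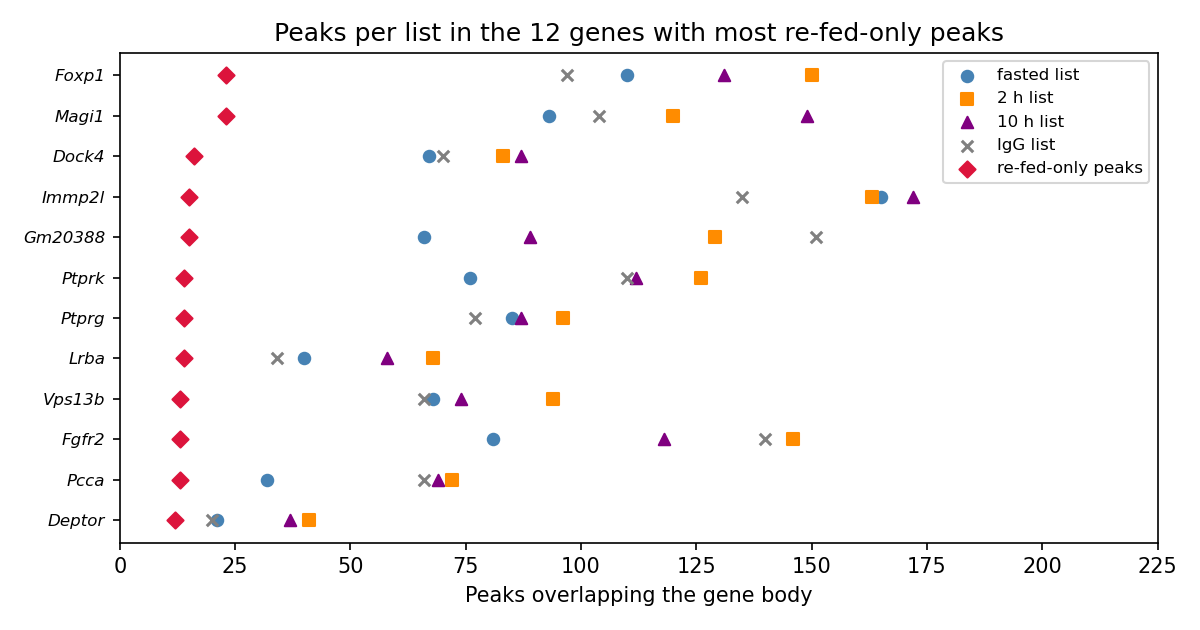
For the 12 genes with most members, the x axis counts peaks over the gene body in the fasted, 2 h, 10 h and IgG lists and the members among the 2 h peaks. Every gene has at least 20 peaks in each list, and Deptor has the fewest.

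No fasted peak lay anywhere in the gene body of 554 hosts, which held 585 members. Of these, 238 hosts had no IgG peak either and held 236 members, and the protein-coding ones among the 238 had a median length of 15.7 kb. Such counts were not taken over all genes with a 2 h peak, so they cannot be called particular to the hosts of members. Casp2, a caspase, had the most of the 238, with 3 members. The largest of them covered the 3′ end of Casp2 (chr6:42280507-42282576) with 73.5 normalised tags at 2 h and 80.4 at 10 h, and the others had 9.01 and 8.06 at 2 h and 8.21 and 10.9 at 10 h. Casp2 members thus held about as many tags at both times. The other 9 genes named by the rule had 2 members each. They were Nup210l, Ncaph2, Gm27241, the long non-coding 2900076A07Rik, Ciapin1, Ccdc191, H3f3a, Ninl and 1110004F10Rik, with summed tags between 27.5 and 91.1 at 2 h and between 18.6 and 112.1 at 10 h.

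Small RNA genes lay under 26 members, a count not taken over the whole 2 h list. Among the small RNA genes were 13 microRNA genes under 11 members, and 11 of these microRNA genes have a mature sequence in the RefSeq table (GRCm38). A member on the X chromosome (chrX:19146003-19146937) covered both mature sequences printed here, with 20.9 normalised tags at 2 h and 16.4 at 10 h. The mature 3p forms of these 2 microRNAs share the seed, bases 2 to 8, in capitals.
miR-221-3p: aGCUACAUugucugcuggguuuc
miR-222-3p: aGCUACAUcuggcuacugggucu

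Libraries were made from total RNA with a kit for longer RNA, so the signal describes RNA over the locus and not the mature forms. Snora28, the small nucleolar RNA in an intron of Eif5, lay under the most tagged of these members, with 268.8 normalised tags at 2 h and 199.2 at 10 h. Mir1960 lay under a member of Hadhb, a fatty acid oxidation enzyme, with 46.5 and 23.

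Members were then counted over gene lists of liver metabolism. Of fatty acid oxidation and ketogenesis genes 12 of 28 had a member, and of insulin and nutrient signalling genes 16 of 30, beside 15.3% of all protein-coding genes. That share includes genes with no 2 h peak. Of genes with a 2 h peak 41.8% had a member. On that footing oxidation gave 12 of 25, insulin 16 of 25, glycogen 6 of 11 and secreted proteins 10 of 18. Bile acid gave 9 of 20, RNA-binding proteins 11 of 27, lipogenesis 10 of 27 and clock 7 of 19. Glycolysis gave 4 of 21 and gluconeogenesis 4 of 17. Insulin and nutrient genes are long, with a median of 69.7 kb, and of all protein-coding genes from 50 to 150 kb 38.2% had a member. In the oxidation list Hadhb had 4 members with 141.8 normalised tags at 2 h and 197.5 at 10 h, and the acyl-CoA synthetases Acsl3, Acsl5 and Acsl1 had 3, 3 and 2. Acsl5 summed to 63 normalised tags at 2 h and 182.8 at 10 h, and Acsl3 to 64.02 and 123.1. In the insulin list Egfr had 6 members, the insulin receptor Insr 4, and Rictor, of the mTOR complex, and the lipid kinase subunit Pik3ca 3 each. The members of Insr, all intronic, held 37.9, 32.2, 18.5 and 9.96 normalised tags at 2 h and 49.2, 39.9, 21.9 and 25.7 at 10 h. Each held more tags at 10 h, but per kb the 10 h values of these Insr members were 1.24, 1.45, 0.731 and 0.835 of those at 2 h.

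The lists of carbohydrate handling were mixed. Glycogen metabolism had 6 of 20, led by the branching enzyme Gbe1 with 5 members (106.6 normalised tags at 2 h and 99.11 at 10 h), the phosphorylase kinase subunit Phkb with 4 and the glycogen synthase kinase Gsk3b with 4 (59.26 and 126.4). The synthase itself, Gys2, had 1, at 55 and 34.5. Glucose uptake and glycolysis had 4 of 29, 1 member each in Pklr, Pfkfb2, Gpi1 and Pdk1. The member of Pklr, liver pyruvate kinase, held 121.4 normalised tags at 2 h and 26.8 at 10 h in a gene with no fasted peak. Gluconeogenesis had 4 of 21: Creb1 and Foxo1 with 2 and Foxo3 and Pcx with 1. The glucose transporter Slc2a2 and the glucose-output enzymes Pck1 and G6pc had 0.

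Lipogenesis and sterol synthesis had 10 of 33. Acacb, an acetyl-CoA carboxylase, led with 3 members at 26.54 normalised tags at 2 h and 36.1 at 10 h, followed by malic enzyme Me1 with 2 (55.9 and 107.3). Gpam, which starts glycerolipid synthesis, had 1 at 36.5 and 31.7. Fasn, fatty acid synthase, had 0.

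The bile acid and xenobiotic list had 9 of 26. Abcb11, the bile salt export pump, had 3 members at 123.3, 110 and 9.48 normalised tags at 2 h and 385.8, 368.3 and 329.4 at 10 h. Per kb the 10 h values of Abcb11 were 2.39, 2.69 and 6.6 times those at 2 h, and the third member overlapped its wide 10 h peak by 3 bp. Cyp2c29 had 2 members with 386.91 and 460.2 in sum, and the phospholipid exporter Abcb4 2 with 40.3 and 74.4. The list of secreted proteins and the urea cycle had 10 of 29, with 4 members in Fn1 (371.3 and 334.9), 3 in Apob, the structural protein of liver lipoproteins, and 2 in the copper carrier Cp (239.9 and 469.5). The Apob members held 310.6, 244.2 and 215.3 normalised tags at 2 h and 212.3, 309.2 and 166.3 at 10 h, near equal in sum. At 3-fold over input in both re-fed lists the secreted list fell to 0 of 29 and the bile acid list to 1 of 26.

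Of clock genes 7 of 24 had a member. Clock had 3, at 55.9, 18.5 and 13.3 normalised tags at 2 h and 57.5, 26.8 and 20.8 at 10 h, Btrc, a ubiquitin ligase subunit, 3 and Rora 2. Per1 had 1 in its first intron, with 74.9 at 2 h and 14.8 at 10 h, and Cry1 had 1, with 11.4 at 2 h in a narrow peak and 133.5 at 10 h in a wide one (1.52 times per kb). Arntl had 1, at 7.11 and 27.4, in a gene with no fasted peak. Per2 had 0 and so did Npas2, which had no 2 h peak at all but 23 at 10 h. The Per1, Cry1 and Arntl values follow times of day that differ with feeding, which cannot be told apart.

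Of nuclear RNA-binding proteins 11 of 30 had a member, Sfpq among them. Elavl1 had 3, at 79.1 normalised tags at 2 h and 71.7 at 10 h in sum, Son 2 at 490.7 and 530.8 (both met the same 10 h peak), the 3′ end factor Cpsf6 2 at 438.1 and 207.9, and Hnrnpm 2 at 42.7 and 119.8. Nono itself had 1 small member, at 8.53 and 12, and Pspc1, the third protein of the family, 1 at 54.1 and 41. Of nuclear long non-coding RNAs 2 of 14 had a member, beside 300 of 10155 long non-coding genes. They were Pvt1 with 2 members at 9.96 and 25.77 in sum and Firre with 1 at 8.06 and 14.8. Neat1 had 0, its only 2 h peak having met an IgG peak. Gulp1 also had 0, although 35 peaks lay over it at 2 h, since it had none at 10 h.

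**Figure D5:**
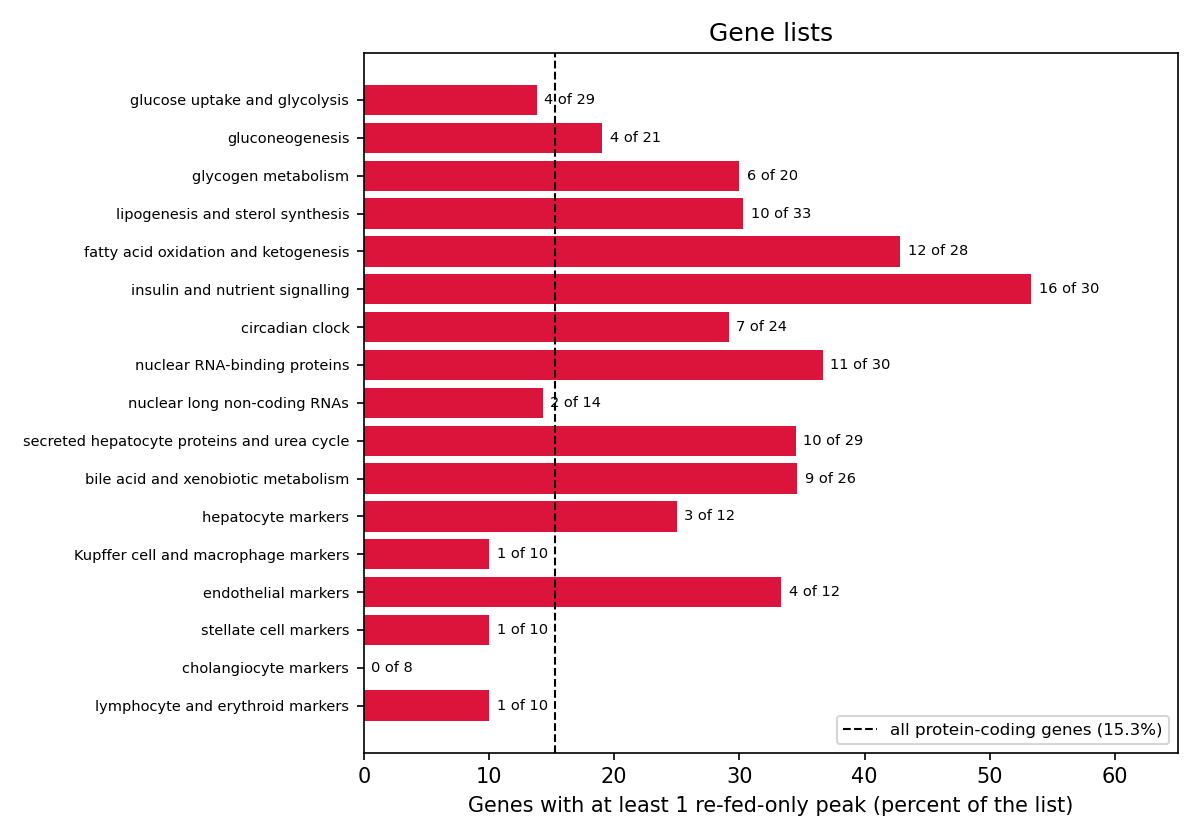
Bars give the percent of genes of each list that hold at least 1 member, with the numbers beside them, and the dashed line marks the 15.3% of all protein-coding genes. Of genes with a 2 h peak 41.8% had a member. The line does not apply to the long non-coding RNA list, as 300 of 10155 long non-coding genes had a member. Insulin and nutrient signalling is highest at 16 of 30 and cholangiocyte markers lowest at 0 of 8, of which 1 had a 2 h peak.

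Markers of the liver's cell types were checked against the label of whole-liver nuclei. Members lay over 3 of 12 hepatocyte markers (Cps1 and Ass1 among them), 4 of 12 endothelial markers, 1 of 10 Kupffer cell and macrophage markers (Timd4), 1 of 10 stellate cell markers (Hgf), 1 of 10 lymphocyte and erythroid markers (Ptprc) and 0 of 8 cholangiocyte markers. The endothelial members were 5 in Ptprb (137.51 normalised tags at 2 h and 136.25 at 10 h in sum), 3 in Stab2, 2 in Kdr and 1 in Tek. Hgf had 5, at 84.38 and 124.75. Any 2 h peak was present over 6 of the 12 hepatocyte markers and 5 of the 12 endothelial markers. It was present over 3 Kupffer cell, 3 stellate, 2 lymphocyte and erythroid and 1 cholangiocyte markers. Beside these counts, 15.3% of all protein-coding genes and 41.8% of genes with a 2 h peak had a member. Summed over each list, members held 502.66 normalised tags at 2 h and 881.52 at 10 h on hepatocyte markers (459 and 790.7 of them in Cps1 alone), 236.58 and 253.31 on endothelial, 84.38 and 124.75 on stellate, 24.2 and 21.9 on lymphocyte and erythroid and 13.7 and 13.7 on Kupffer cell markers. The hepatocyte markers Ttr, Apoa1, Cebpa and Serpina1a had no peak of any NONO list, nor did Pecam1, Lyve1, Csf1r, Cd68, Krt19, Epcam, Des or Lrat. The part of cell make-up in any difference between times was not tested.

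Among genes with at least 5 members, the summed tags set Egfr apart. Its 6 members summed to 3783 normalised tags at 2 h and 315.1 at 10 h, a ratio of 0.083, which was 0.152 per kb. Next came Itpr1, a calcium channel of the endoplasmic reticulum (0.384), the deubiquitinase Cyld (0.451), the histone methyltransferase Ehmt1 (0.459) and the taurine transporter Slc6a6 (0.465). At the other end stood the Elongator subunit Elp4 (7.4), the receptor tyrosine kinase Erbb4 (5.42), Ppp1r9a (4.57) and the transcription factors Klf12 (4.07) and Zfhx4 (3.77). Per kb these 5 ratios were 1.93, 2.14, 1.74, 2.79 and 1.68. Counted from the 10 h list, 4 of the 5 fell below 1, at 0.727 for Elp4, 0.821 for Erbb4, 0.872 for Klf12 and 0.310 for Zfhx4, while Ppp1r9a, which encodes a neuronal actin-binding protein, gave 2.16. Per kb Slc6a6 gave 1.04, and Ehmt1 gave 1.20 at 3-fold over input. The low ratio of Egfr was 0.0322 when counted from the 10 h list. The Egfr gene had 29 peaks at 2 h, of which 10 were free of an IgG peak, 41 at 10 h, 15 fasted and 32 in IgG. Its ratio therefore describes its members and not the whole gene.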

How the data were processed

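The members and the gene lists were chosen with earlier results of these data known. Per the submitters' processing notes, FastQC 0.11.2, STAR 2.4.0k and HOMER were used on mm10. Each immunoprecipitate was compared with its own input by HOMER, with a peak size of 500 bp, a minimum distance of 1000 bp, 2-fold over input, a Poisson p of 0.0001 and a threshold of 11 tags (8 for IgG), per the file headers. Normalised tags, a deposited signal, are scaled to 10000000 tags per library. The deposited fold is the ratio of immunoprecipitate to input after scaling, and the deposited score is HOMER's peak score, used here only to rank peaks. The length of a peak is the authors' region size. Each library is a pool of 2 experiments and 1 library stands for each group, so no test was run and the shares have exact Clopper-Pearson intervals of 95%.

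Peaks were joined by 1 bp of overlap and laid on GENCODE M21. A peak counts for every gene body it overlaps, and its gene part is that of its midpoint, with promoters of 1000 bp. Tags at 10 h are summed over all 10 h peaks a member meets. Values that share peaks between genes are counted in each. The named genes are the 12 with most members; the hosts of the 10 members with most tags at 2 h and at 10 h; the hosts of the 8 with the highest smaller fold among those with 25 normalised tags at both times; the 10 with most members among genes with no fasted and no IgG peak; up to 4 genes of each list; the 5 highest and 5 lowest ratios among genes with at least 5 members; and Neat1, Nono, Slc2a2, Insr, Arntl, Npas2, Per1, Per2, Cry1, Fasn, Pck1, G6pc and Gulp1. Some items are not reported here. Norad and C5 did not match a gene of the annotation. Printed sequences come from GENCODE M21 transcripts and RefSeq tables; of 350 promoter windows that both sources hold, all 350 gave the same bases. The overlap and annotation steps were tested on simulated data. Tools were scipy 1.17.1, pandas 2.3.3 and numpy 2.4.6, run in Python 3.11.15.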

Additional observations from a re-analysis of the deposited data

How the results depend on the processing

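No paired analysis was possible because every state was sequenced as a single pool. Library depth limits the small members: at least 22 tags in both peaks, an alternative chosen after seeing the data, left 4182 peaks. The 7420 members became 2666 at 3-fold in both re-fed lists, 3319 at 3-fold in all 4 lists, 4041 with equally long lists, 4176 with a margin of 1000 bp and 14034 without the IgG list. Overlap of 50% of the shorter peak gave 5605, a test of the 10 h partner 6302 and counting in the 10 h list 8470. The 3652 hosts became 1690 and 1979 at 3-fold in the 2 re-fed or all 4 lists, and stayed within 1.5 times otherwise (2514 to 4715). The intron share moved to 86.0% with the 1000 bp margin, 89.8% without IgG and 89.6% in the 10 h list, and the other alternatives gave 88.1% to 89.2%. The shares of all 6 other gene parts left their intervals at 3-fold in all 4 lists, and 5 did at 3-fold in the 2 re-fed lists. With the 1000 bp margin 3 did, with the partner tested all 6 stayed, and otherwise 1 or 2 did. The median ratio turned to 0.815 in the 10 h list. It was 1.09 with overlap of 50% of the shorter peak, 1.09 and 1.07 at 3-fold in the 2 re-fed or all 4 lists, 1.07 with equally long lists, 1.04 with the partner tested and 1.01 without IgG. The 91 genes of the pathway lists became 20 and 28 at 3-fold in the 2 re-fed or all 4 lists. The ratio of Ehmt1 turned to 1.20 at 3-fold in either way, that of Slc6a6 to 1.04 per kb, and those of Elp4, Erbb4, Klf12 and Zfhx4 to 0.727, 0.821, 0.872 and 0.310 in the 10 h list. The cause of these changes was not tested. Sequence features over all members were not run, because a genome sequence was not used here.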
